A study of Homo sapiens with 24 samples.

Results

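A group of 6 secreted factors that liver cells release under stress was followed, namely *GDF15*, *FGF21*, *INHBE*, *ADM2*, *STC2* and *FGF19*. They were chosen by gene name, and all 6 of them were among the 18915 genes of the count table. *GDF15*, *INHBE*, *ADM2* and *STC2* had counts in all 24 libraries and were among the 12685 genes that passed the filter on low counts, whereas *FGF21* and *FGF19* did not pass it.

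The study measured mRNA by 3′-end sequencing in HepG2, a human hepatoma cell line, to ask how drugs that raise or block signaling through eIF2α and ATF4 change the answer to proteasome inhibition. Cells were treated for 10 h with the solvent DMSO, with 50 nM of the proteasome inhibitor bortezomib, with 20 µM nelfinavir, with 50 nM ISRIB, with 50 nM bortezomib plus 20 µM nelfinavir, or with 50 nM bortezomib plus 50 nM ISRIB. Each group held 4 biological replicates, and every group was the same cell line, so the values describe this one line. Nelfinavir is an antiviral protease inhibitor that raises eIF2α phosphorylation, and ISRIB makes translation insensitive to that phosphorylation.

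When a cell is stressed, phosphorylated eIF2α slows protein synthesis but favors translation of ATF4, a transcription factor that turns on genes for amino acid supply and adaptation. Several hormones are known to lie downstream of this response, so that a stressed liver can signal to other organs. GDF15 acts on the hindbrain to lower food intake, FGF21 is a fasting hormone, INHBE is the subunit of activin E, ADM2 is a vasoactive peptide related to adrenomedullin, STC2 is a glycoprotein that restrains growth factor release, and FGF19 restrains bile acid synthesis.

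Libraries held 5154533 to 6943164 counts and 12906 to 14526 detected genes. Mitochondrial genes took 18.0 to 23.2% of the counts in the libraries without bortezomib and 24.9 to 40.2% in those with it, and the scaling factors (trimmed mean of M-values, TMM) were 1.16 to 1.24 and 0.787 to 0.869, respectively. All 13 hepatocyte and hepatoma markers reached a mean of 1 CPM (counts relative to the TMM-scaled library total). The markers of fibroblasts and endothelial cells were at or near 0, and none of 6 fibroblast and 0 of 4 endothelial markers reached that mean. The leukocyte list was mixed: *PTPRC* had no counts, but 2 of 5 markers reached that mean, and the list summed to 67.7 to 439 CPM per library. These 2 were *LYZ* and *CD68*. On the enterocyte and cholangiocyte list, which summed to 44.2 to 215 CPM, *VIL1* reached it. Summed over the hepatocyte list, the level was 16185 to 18170 CPM in DMSO, 12105 to 12766 with bortezomib, 8646 to 10391 with bortezomib plus nelfinavir and 11649 to 13244 with bortezomib plus ISRIB, and its part in the results was not tested.

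The promoters of 4 of the 6 genes could be matched in a RefSeq table of build GRCh38.p14, while the counts were made on hg19 (GRCh37). The 250 bases before each start are shown 5′ to 3′ on the gene's strand, because *GDF15*, *ADM2* and *STC2* each rose with bortezomib and with nelfinavir while *FGF21* hardly gave a read. *INHBE* rose with both drugs as well, but its promoter could not be matched. Capitals mark matches to 5 motifs searched on both strands: the C/EBP-ATF composite site TGATGNAA, the CRE TGACGTCA, CCAAT, the ERSE, which holds CCAAT as its first letters, and TATAAA. Coordinates are chr19:18385908-18386157 (plus strand) for *GDF15*, chr19:48755274-48755523 (plus strand) for *FGF21*, chr22:50481293-50481542 (plus strand) for *ADM2* and chr5:173328415-173328664 (minus strand) for *STC2*.
GDF15: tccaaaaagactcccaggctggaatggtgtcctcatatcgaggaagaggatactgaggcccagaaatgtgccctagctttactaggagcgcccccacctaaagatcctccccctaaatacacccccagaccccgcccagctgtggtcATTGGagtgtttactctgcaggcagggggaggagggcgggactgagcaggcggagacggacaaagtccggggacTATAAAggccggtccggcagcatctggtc
FGF21: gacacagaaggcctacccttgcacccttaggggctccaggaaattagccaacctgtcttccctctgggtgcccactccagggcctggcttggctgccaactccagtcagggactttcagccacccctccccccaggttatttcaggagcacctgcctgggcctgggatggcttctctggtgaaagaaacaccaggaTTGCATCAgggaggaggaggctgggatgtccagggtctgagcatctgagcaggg
ADM2: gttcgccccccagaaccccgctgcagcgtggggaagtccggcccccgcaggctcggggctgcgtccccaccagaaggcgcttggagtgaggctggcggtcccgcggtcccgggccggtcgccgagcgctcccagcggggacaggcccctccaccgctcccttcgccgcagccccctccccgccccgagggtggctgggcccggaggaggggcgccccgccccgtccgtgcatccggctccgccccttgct
STC2: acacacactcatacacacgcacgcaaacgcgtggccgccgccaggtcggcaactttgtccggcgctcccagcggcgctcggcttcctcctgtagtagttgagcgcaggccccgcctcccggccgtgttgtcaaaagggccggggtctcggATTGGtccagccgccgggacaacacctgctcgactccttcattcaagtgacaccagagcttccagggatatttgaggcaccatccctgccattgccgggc
The composite site was found in *FGF21* only among these 4 windows, as TGATGCAA on the minus strand 54 to 47 bases before the start, and 3.14% of the 35114 promoters searched hold it. *GDF15* held CCAAT on the minus strand 103 to 99 bases before the start and TATAAA 29 to 24 bases before it, and *STC2* held CCAAT on the minus strand at 100 to 96 bases. Of all promoters, 32% hold CCAAT, 10.7% TATAAA, 1.65% the CRE and 0.074% the ERSE. No match was found in the *ADM2* window. For every gene, a missing match says only that these exact letters are not in the 250 bases shown. Sites elsewhere were not searched, and the paper placed most ATF4 and TRIB3 peaks outside proximal promoters.

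*GDF15* (ENSG00000130513, chr19:18485541-18499986, plus strand, GRCh37) is a distant member of the TGF-β family whose receptor, GFRAL, is found in the brainstem. It was the most abundant of the group. In DMSO its level was 185, 195, 129.7 and 145 CPM in the 4 libraries, and with ISRIB 134, 144, 175 and 156 CPM. With nelfinavir it was 848, 572, 485 and 616 CPM. With bortezomib it was 4611, 4062, 3581 and 4092 CPM. All 4 nelfinavir libraries lay above all libraries of DMSO and ISRIB, and all bortezomib libraries lay above every nelfinavir library. With bortezomib plus nelfinavir the level was 5529.97, 5109, 5031 and 5285 CPM, and with bortezomib plus ISRIB 4732, 5049, 4902 and 3925 CPM. *GDF15* took 0.0198% ± 0.00385 (SD, n = 4) of all counts in DMSO and 0.350% ± 0.0399 with bortezomib.

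*ADM2* (ENSG00000128165, chr22:50919972-50924869, plus strand, GRCh37) was the least abundant of the 4 genes tested. In DMSO its level was 4.30, 5.46, 4.76 and 4.29 CPM, and with ISRIB 3.40, 3.02, 2.54 and 4.44 CPM. Nelfinavir gave 44.3, 36.8, 39.3 and 36.2 CPM. Bortezomib gave 50.0, 48.7, 56.6 and 49.9 CPM. The bortezomib libraries lay above the nelfinavir libraries, and both lay far above DMSO. With bortezomib plus nelfinavir the level was 63.4, 66.5, 64.4 and 61.2 CPM, above every other library. With bortezomib plus ISRIB it was 39.2, 38.1, 53.02 and 43.9 CPM. *SBF1*, which is in the count table, overlaps 2381 bases of *ADM2* on the opposite strand, part of its last exon included, but does not reach its 3′ end, where this assay reads.

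*STC2* (ENSG00000113739, chr5:172741726-172755450, minus strand, GRCh37) encodes stanniocalcin 2, an inhibitor of the protease PAPP-A that frees insulin-like growth factors. In DMSO its level was 48.4, 46.0, 52.2 and 54.9 CPM, and with ISRIB 44.1, 46.2, 52.1 and 50.5 CPM. With nelfinavir it was 194, 175, 217 and 238 CPM. With bortezomib it was 207, 184, 166 and 183 CPM. The nelfinavir and bortezomib libraries overlapped and both lay above DMSO. With bortezomib plus nelfinavir *STC2* reached 256, 240.1, 305 and 282 CPM, above every other library. With bortezomib plus ISRIB it was 94.6, 94.8, 106 and 84.8 CPM, between DMSO and bortezomib.

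*INHBE* (ENSG00000139269, chr12:57846106-57853063, plus strand, GRCh37) encodes the βE subunit that pairs to form activin E, a liver hormone that restrains fat breakdown. In DMSO its level was 44.3, 53.9, 44.9 and 45.3 CPM, and with ISRIB 45.0, 42.9, 45.6 and 48.1 CPM. With nelfinavir it was 268, 226, 258 and 259.9 CPM. With bortezomib it was 129.97, 145, 115 and 125 CPM. Here the order of the 2 drugs was the opposite of that for *GDF15* and *ADM2*, with all nelfinavir libraries above all bortezomib libraries. With bortezomib plus nelfinavir the level was 101, 83.3, 97.4 and 86.9 CPM, below every bortezomib library. With bortezomib plus ISRIB it was 70.1, 66.4, 80.6 and 68.1 CPM. A lncRNA, ENSG00000287200, overlaps 1685 bases of *INHBE* on the opposite strand, the 3′ part of the last exon of *INHBE* included. The strand setting of the counting is not given in the sources used here.

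**Figure D1:**
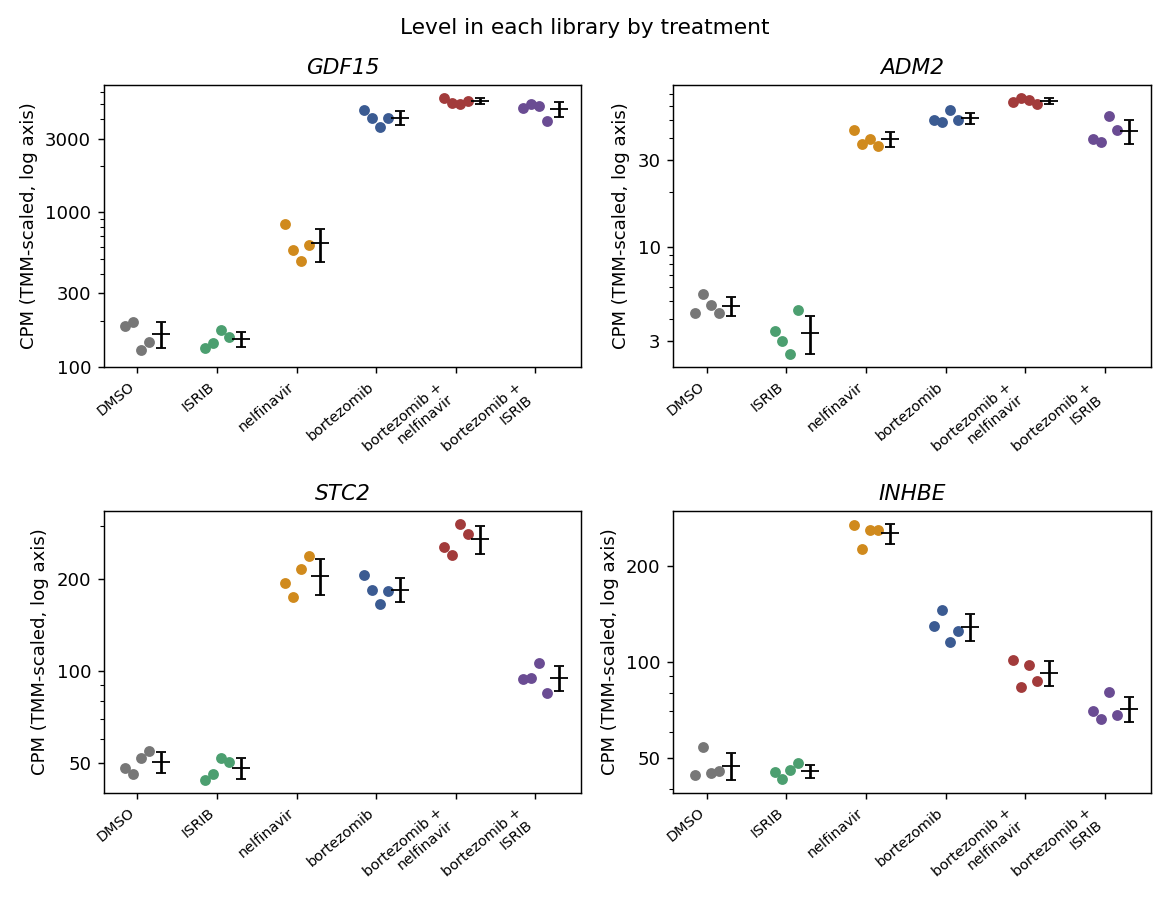
Level of *GDF15*, *ADM2*, *STC2* and *INHBE* in each of the 24 libraries, in TMM-scaled CPM on a log axis, by treatment. Points are libraries and bars are the mean ± SD of 4; *GDF15* libraries with bortezomib lie at 3581 CPM or above, whereas the highest levels of *INHBE*, 226 to 268 CPM, are with nelfinavir.

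Bortezomib raised all 4 genes that could be tested, with fold changes from 2.74 to 24.9. *GDF15* rose 24.9-fold (95% interval 20.3 to 30.7) and *ADM2* 10.9-fold (8.85 to 13.4), whereas *STC2* rose 3.67-fold (3.17 to 4.25) and *INHBE* 2.74-fold (2.39 to 3.14). The log2 fold changes were 4.64 ± 0.147 (SE, adjusted p = 5.09e-23, edgeR quasi-likelihood test) for *GDF15*, 3.45 ± 0.147 (adjusted p = 1.58e-19) for *ADM2*, 1.88 ± 0.103 (adjusted p = 1.41e-16) for *STC2* and 1.45 ± 0.0960 (adjusted p = 1.49e-14) for *INHBE*. Among all genes tested 27.6% were called higher and 25.8% lower, and 25.6% had every bortezomib library above every DMSO library, as these 4 genes had. When the counts were scaled by library totals alone the median of all genes fell by 0.50 on the log2 scale, and 19.2% of the genes called were higher against 51.7% with TMM, but all 4 genes were still called higher.

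Nelfinavir alone raised the same 4 genes. The largest rise was that of *ADM2*, 8.32-fold (6.77 to 10.2), or 3.06 ± 0.146 on the log2 scale (adjusted p = 1.85e-17, edgeR). *INHBE* rose 5.38-fold (log2 2.43 ± 0.0965, adjusted p = 1.03e-19), *STC2* 4.08-fold (2.03 ± 0.103, adjusted p = 9.25e-17) and *GDF15* 3.84-fold (1.94 ± 0.132, adjusted p = 1.67e-13). Of all genes 10.4% were called higher, and in 15.6% all nelfinavir libraries lay above DMSO, as for these 4. Compared directly, the level with bortezomib was higher than with nelfinavir for *GDF15* (log2 2.70 ± 0.134, adjusted p = 1.79e-17) and *ADM2* (0.39 ± 0.121, adjusted p = 0.00791) and lower for *INHBE* (−0.97 ± 0.0918, adjusted p = 1.31e-10). For *STC2* the difference was −0.15 with an interval of −0.35 to 0.04 and was not called (adjusted p = 0.197). Of all genes 25.2% were called higher and 23.6% lower, and without overlap 21.8% were higher and 21.5% lower. The *ADM2* difference was 0.30 without bortezomib replicate 3 (adjusted p = 0.0635) and 0.33 without the filter on low counts (adjusted p = 0.0648). Scaled by totals only, *ADM2* turned to −0.085 (adjusted p = 0.585) and *STC2* was called lower at −0.62 (adjusted p = 4.17e-06).

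With ISRIB alone none of the 4 genes was called by the edgeR test, against 0% of all genes called. The log2 fold change was −0.11 (interval −0.37 to 0.15) for *GDF15*, −0.05 (−0.25 to 0.14) for *INHBE* and −0.06 (−0.28 to 0.15) for *STC2*. *ADM2* was at −0.47 (−0.85 to −0.10), which was under 0.05 before adjustment in edgeR (unadjusted p = 0.0144) and not after it (adjusted p = 0.730). The libraries of both groups overlapped for every one of the 4 genes. Among all genes 702 were under 0.05 unadjusted and DESeq2 called 21, none of them among these 4.

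**Figure D2:**
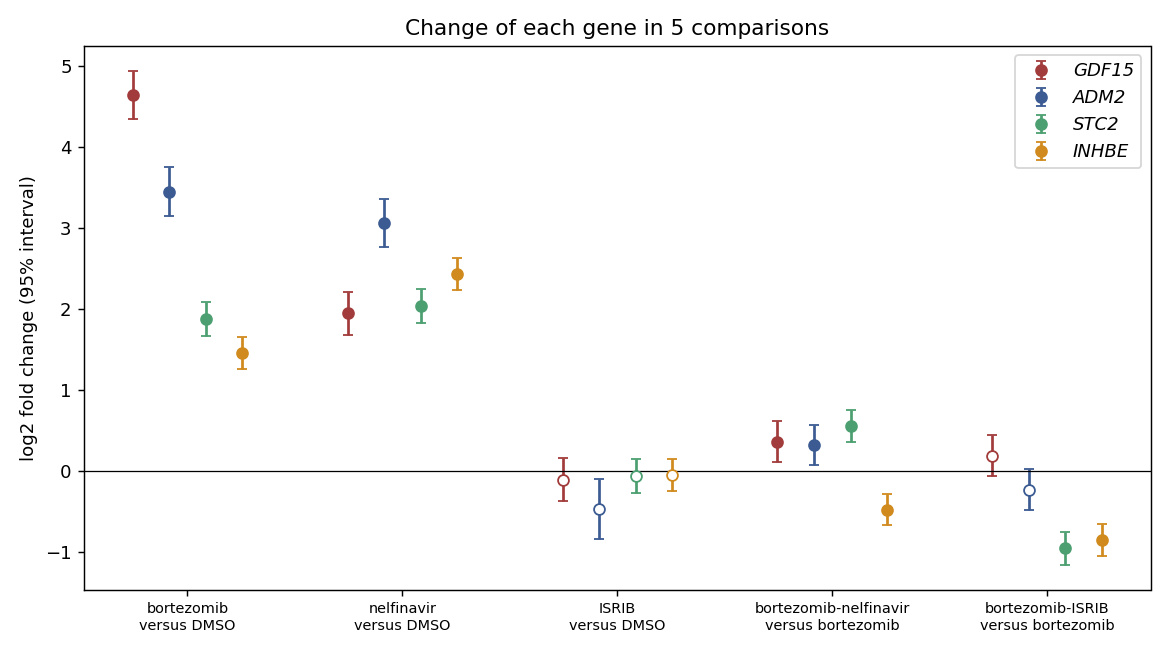
Log2 fold change of each gene in 5 comparisons, with 95% intervals from the edgeR fit. Filled points were called at an adjusted p under 0.05 and open points were not; bortezomib changes run from 1.45 to 4.64, and *INHBE* is the only one of the 4 below 0 when nelfinavir was added to bortezomib.

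Adding nelfinavir to bortezomib moved 3 genes up and 1 down. *STC2* rose a further 1.46-fold (log2 0.55 ± 0.0981, adjusted p = 6.26e-05, edgeR), *GDF15* 1.28-fold (0.36 ± 0.126, adjusted p = 0.0301) and *ADM2* 1.24-fold (0.32 ± 0.121, adjusted p = 0.0468). *INHBE* fell, by 0.48 ± 0.0942 on the log2 scale (adjusted p = 0.000184), so that its level was 1.399-fold lower than with bortezomib alone. The libraries of both groups did not overlap for any of the 4. Of all genes, 15.6% were called higher and 13.4% lower, and without overlap 12.4% were higher and 9.11% lower. The *GDF15* call was lost without bortezomib replicate 3 (0.34, adjusted p = 0.0682) and when only totals set the scale (0.32, adjusted p = 0.0627). The *ADM2* call was lost without bortezomib replicate 1 (adjusted p = 0.0559), 2 (adjusted p = 0.0629) or 4 (adjusted p = 0.0535), without bortezomib plus nelfinavir replicate 3 (adjusted p = 0.0598), and under 4 other settings (adjusted p from 0.0520 to 0.0939).

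The combination was also set against nelfinavir alone. There *GDF15* was 8.32-fold higher (log2 3.06 ± 0.136, adjusted p = 5.65e-19, edgeR) and *ADM2* 1.63-fold higher (0.70 ± 0.120, adjusted p = 7.03e-06). *STC2* was 1.31-fold higher (0.39 ± 0.0970, adjusted p = 0.000830), and *INHBE* was 2.75-fold lower (−1.46 ± 0.0935, adjusted p = 7.47e-15). In that comparison 28.7% of all genes were called higher and 28.4% lower, and the groups did not overlap for 24.7% (higher) and 25.3% (lower) of all genes, nor for any of the 4. With library totals alone *STC2* turned to −0.11 (adjusted p = 0.345) and the *ADM2* call was lost (0.20, adjusted p = 0.169).

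On the log2 scale, that is as a ratio of levels, the effect of nelfinavir was smaller with bortezomib than without it for each of the 4 genes. The difference of the effects, tested as an interaction, was −2.91 ± 0.134 on the log2 scale for *INHBE* (adjusted p = 1.96e-17, edgeR), the rank 3 result by p among 12685 genes. It was −2.74 ± 0.190 for *ADM2* (adjusted p = 1.02e-12), −1.58 ± 0.180 for *GDF15* (adjusted p = 5.06e-08) and −1.48 ± 0.141 for *STC2* (adjusted p = 1.32e-09). For *INHBE* the sign of the effect itself turned, from a rise of 2.43 to a fall of 0.48. Of all genes 10.0% had an interaction called lower and 9.74% higher.

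Adding ISRIB to bortezomib split the genes. *STC2* fell by 0.96 ± 0.101 on the log2 scale (adjusted p = 2.51e-08, edgeR) and *INHBE* by 0.86 ± 0.0959 (adjusted p = 7.71e-08), which made them 1.94-fold and 1.81-fold lower, with no overlap of libraries. *GDF15* was not called (0.19, interval −0.07 to 0.44, adjusted p = 0.360), nor was *ADM2* (−0.24, −0.49 to 0.02, adjusted p = 0.221), and the libraries of both overlapped. Of all genes, 5.34% were called lower and 5.99% were lower without overlap. The interaction of ISRIB with bortezomib was called for *STC2* (−0.89 ± 0.145, adjusted p = 0.000142) and *INHBE* (−0.80 ± 0.136, adjusted p = 0.000228) and not for *GDF15* (0.30, −0.07 to 0.66, adjusted p = 0.403) or *ADM2* (0.24, −0.21 to 0.69, adjusted p = 0.626). An interaction was called lower for 1.89% of all genes.

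With ISRIB present in both groups, bortezomib still raised all 4 genes. The rise was 30.6-fold for *GDF15* and 12.9-fold for *ADM2*, against 1.97-fold for *STC2* (log2 0.98 ± 0.104, adjusted p = 1.21e-09, edgeR) and 1.57-fold for *INHBE* (0.65 ± 0.0979, adjusted p = 9.94e-07), where 29.1% of all genes were called higher and 24.7% were higher without overlap. With library totals alone *INHBE* was at 0.11 and not called (adjusted p = 0.339). Between the 2 combinations, the level with nelfinavir was higher than with ISRIB for *STC2* (log2 1.51 ± 0.102, adjusted p = 5.24e-13), *ADM2* (0.55 ± 0.122, adjusted p = 0.00100) and *INHBE* (0.37 ± 0.0967, adjusted p = 0.00452), and not called for *GDF15* (0.17, −0.08 to 0.43, adjusted p = 0.341), with 13.2% of all genes called higher and 10.6% higher without overlap. The *INHBE* difference was not called when only those 2 groups were fitted (0.35, adjusted p = 0.0582).

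**Figure D3:**
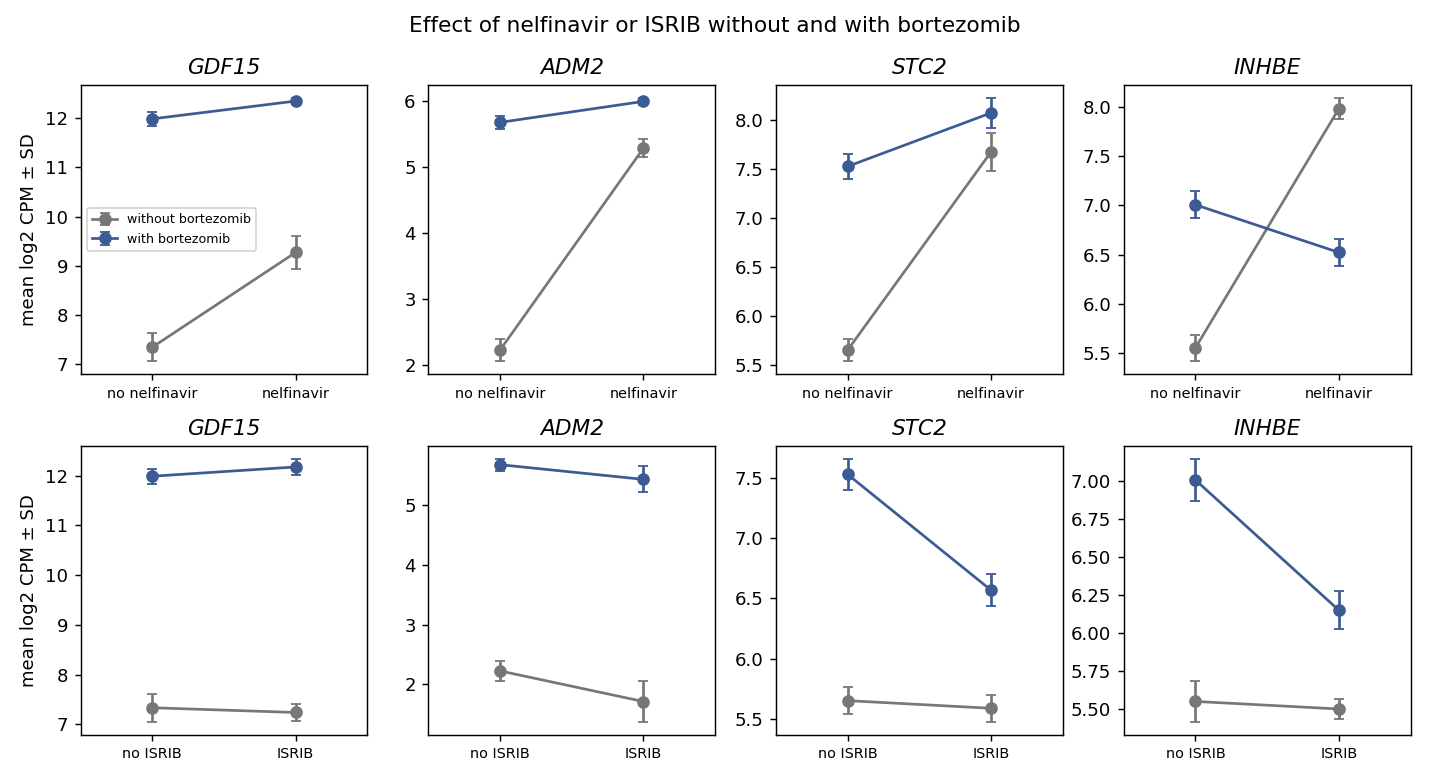
Mean log2 CPM ± SD over 4 libraries of each gene without (gray) and with (blue) bortezomib, against the absence or presence of nelfinavir (upper row) or ISRIB (lower row). Vertical axes differ between panels; lines that are not parallel show an interaction, and for *INHBE* the nelfinavir lines cross.

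Ordered by level, ISRIB and DMSO were lowest for all 4 genes and were not called different from each other. For *GDF15* nelfinavir followed, and then the 3 bortezomib groups, whose neighbors in the order (bortezomib, bortezomib plus ISRIB, bortezomib plus nelfinavir) were not called different. The ends of that run were called different (log2 0.36, adjusted p = 0.0301, edgeR), a call that some settings lost. For *ADM2* nelfinavir, bortezomib plus ISRIB and bortezomib followed, again with no neighboring pair called, and bortezomib plus nelfinavir was highest. Here too the ends of the run, nelfinavir and bortezomib, were called different (0.39, adjusted p = 0.00791, edgeR), and some settings lost that call. For *STC2* the order was bortezomib plus ISRIB, bortezomib and nelfinavir (these 2 not called different) and bortezomib plus nelfinavir. For *INHBE* it was bortezomib plus ISRIB, bortezomib plus nelfinavir, bortezomib and nelfinavir, each step called. In all, 11 of 20 neighboring pairs were called. The order was set from the same counts that were tested, so this number only describes it. No share over all genes was computed for it. It was 9 to 11 under the other settings and 10 to 11 with a library left out.

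*FGF21* (ENSG00000105550, chr19:49258781-49261590, plus strand, GRCh37) and *FGF19* (ENSG00000162344, chr11:69513006-69518790, minus strand, GRCh37) are the endocrine fibroblast growth factors of the group. *FGF21* had 5 reads in all: 1, 0, 2 and 0 in the nelfinavir libraries, 2, 0, 0 and 0 with bortezomib plus nelfinavir, and 0 in every other library. *FGF19* had 18 reads: 0, 0, 1 and 1 in DMSO, 0, 3, 1 and 3 with nelfinavir, 0, 4, 5 and 0 with bortezomib plus nelfinavir, and 0 in all libraries of the other groups. All *FGF21* reads thus came from libraries with nelfinavir, and 3 libraries gave them. A count of 0 over a group allows a level of up to 0.0975 CPM with ISRIB, 0.156 CPM with bortezomib and 0.166 CPM with bortezomib plus ISRIB. In DMSO the floor is 0.0949 CPM and holds for *FGF21* only, since *FGF19* had reads there. These floors cover counting error only. Fitted without the filter, neither gene was called in any comparison, and the lowest adjusted p was 0.0522 for *FGF19* with bortezomib plus nelfinavir against bortezomib. No difference in either gene was detected at this depth.

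**Figure D4:**
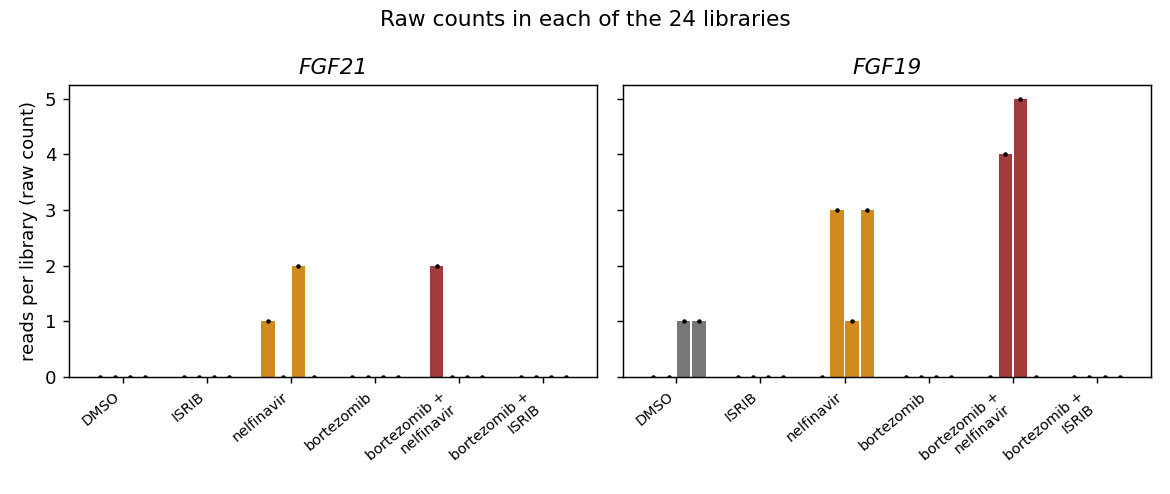
Raw read counts of *FGF21* and *FGF19* in each of the 24 libraries; each bar with its dot is a library, and a dot on the axis is a library with 0 reads. No library holds more than 5 reads of either gene, and reads of *FGF21* are seen only in 3 libraries with nelfinavir.

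The regulators known to act on these genes were read from the same fit. Of 16, bortezomib raised 9 and lowered 3 (median log2 fold change 1.11, against 0.00 for all genes), and nelfinavir raised 10 and lowered none (median 1.05). Among all genes, 27.6% were called higher and 25.8% lower with bortezomib, and 10.4% and 8.84% with nelfinavir. *ATF4* mRNA rose by 1.37 with bortezomib and 1.89 with nelfinavir. *ATF3*, a factor induced by ATF4, rose by 5.39 and 2.81, and *DDIT3*, which encodes CHOP, by 2.44 and 2.55. With nelfinavir added to bortezomib 7 rose, among them *ATF4* (0.84), and 3 fell (15.6% and 13.4% of all genes). With ISRIB added 1 rose and 8 fell (6.89% and 5.34% of all genes), among them *PPP1R15A* (−1.10), the phosphatase subunit that reverses eIF2α phosphorylation, *ATF3* (−0.95) and *XBP1* (−0.89). The nelfinavir interaction was called lower for 13 of the 16 and higher for none (10.0% and 9.74% of all genes). *PPARA*, the fasting regulator of *FGF21*, fell with bortezomib (−0.77) and rose with nelfinavir (0.86).

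**Figure D5:**
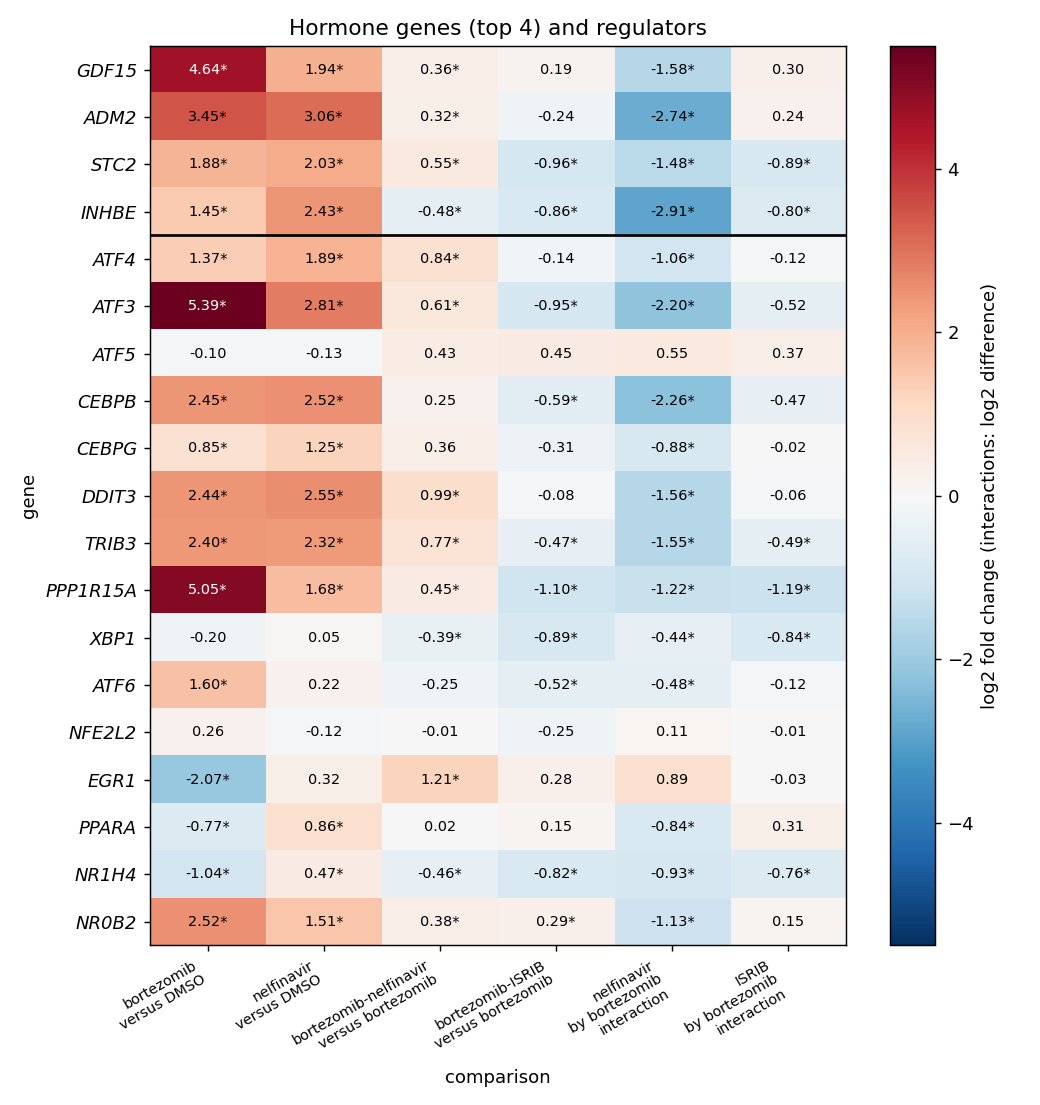
Log2 fold change of the 4 hormone genes (above the line) and 15 of the regulators in 4 comparisons, and the log2 difference of effects in 2 interactions. Red is higher and blue lower, and an asterisk marks an adjusted p under 0.05 in edgeR; with bortezomib the values of *ATF3* (5.39) and *PPP1R15A* (5.05) are above that of *GDF15* (4.64).

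Targets of ATF4 that stay in the cell were listed apart, with some regulators such as *ATF3* on both lists. Of 40 tested, 36 rose and 1 fell with bortezomib (median log2 fold change 1.72), and 39 rose with nelfinavir (median 1.57), where 27.6% and 10.4% of all genes were called higher. *ASNS*, asparagine synthetase, rose by 3.24 and 4.001, and *SLC7A11*, the cystine transporter, rose by 3.74 with bortezomib. With nelfinavir added to bortezomib 25 rose and 2 fell (median 0.49), against 15.6% and 13.4% of all genes. As with the 4 hormone genes, the nelfinavir interaction was called lower for 35 of the 40. It was called higher for 1 (median −1.36), against 10.0% lower and 9.74% higher among all genes. With ISRIB added 17 fell and 2 rose (median −0.31), against 5.34% and 6.89% of all genes, *SESN2* falling by 1.10 and *HERPUD1* rising by 1.86. The hormones *STC2* and *INHBE* were thus called in the direction of the 17, and *GDF15* and *ADM2*, like 21 of the 40, were not called.

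Of 18 receptors and co-receptors listed, 15 were in the count table and 10 were tested. Bortezomib lowered 6 and raised 1 (*ACVR2B*, an activin receptor, 0.98), where 25.8% of all genes were called lower and 27.6% higher. *KLB*, the co-receptor that FGF21 and FGF19 share, fell by 2.28, and *TGFBR3* by 2.39. *FGFR4*, the main FGF19 receptor of the liver, fell by 0.36. *ACVR1C*, the activin E receptor of fat cells, was called lower at a mean of 0.35 CPM in DMSO and 0 counts with bortezomib. Added ISRIB raised *KLB* (0.84) and *ACVR2B* (0.60) and lowered none, where 6.89% of all genes were called higher and 5.34% lower.

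Among 6 tested relatives of the hormones, bortezomib raised *FGF11* (2.41), *ADM* (1.54), which encodes adrenomedullin, and *ADM5* (0.83), and nelfinavir alone changed none by edgeR. The level of *FGF11* was low, with a mean of 0.288 CPM in DMSO and 1.60 CPM with bortezomib and 130 reads over all 24 libraries. Of 11 genes for processing and binding partners bortezomib raised 8 and lowered *FAM20C* (−0.97). For both lists, the share of all genes called with bortezomib was 27.6% higher and 25.8% lower, and with nelfinavir 10.4% and 8.84%. *FST*, the activin-binding protein follistatin, rose by 1.51 with bortezomib and by a further 1.17 with ISRIB added. *FURIN*, the convertase that cuts TGF-β family precursors, rose by 0.77 with nelfinavir and by 0.80 when nelfinavir was added to bortezomib.

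Over the 24 libraries, which share treatments, the level of *GDF15* followed that of *ADM2* most closely within the group (Pearson r of log2 CPM 0.911) and that of *INHBE* least (0.393). *STC2* correlated with *ADM2* at 0.899 and with *INHBE* at 0.801. The genes most like each were *MAP1B* (r = 0.994) for *GDF15*, *SLC7A11* (r = 0.991) for *ADM2*, *EIF2S2* (r = 0.980) for *STC2* and *SARS* (r = 0.942) for *INHBE*. An r over 0.9 was reached with 678 genes by *GDF15*, 147 by *ADM2*, 63 by *STC2* and 4 by *INHBE*.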

How the data were processed

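The files hold raw counts per gene, deposited by the authors for 24 HepG2 libraries made with QuantSeq 3′ mRNA-Seq FWD. The authors trimmed 80 bp single-end reads with cutadapt 2.8 and ran the nf-core RNA-Seq pipeline with STAR on hg19, with an Ensembl GRCh37 annotation of protein-coding, lincRNA and antisense genes. How reads were counted, with which strand setting and whether molecular identifiers were used, is not given in the sources used here. Reads from opposite-strand genes that overlap may therefore be mixed.

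Groups came from the sample labels. Genes were kept by filterByExpr (min.count 5, min.total.count 25), scaled by TMM and tested in 1 quasi-likelihood fit over all 6 groups (edgeR 4.0.16 in R 4.3.3), with Benjamini-Hochberg adjustment over 12685 genes and a threshold of 0.05. CPM used TMM-scaled totals, and correlations used log2 CPM with a prior count of 2. The SE is the size of the log2 fold change divided by the square root of F. Intervals are 95%. Floors for a count of 0 are 3 counts over the group. Genes outside the group of 6 were named from each list as the largest changes past the threshold in each direction, with some named for their known role after their values were seen and some listed genes not reported here by name. The script was tested on simulated data. DESeq2 1.42.0, other scaling, filters, only the groups compared, mitochondrial genes removed, leaving out libraries and a replicate block were alternatives. The members and lists were chosen with earlier results of these data known.

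The replicate numbers are not stated to mark shared cultures or days. No replicate pair was a copy (lowest chi-square per degree of freedom 2.19 over 36 pairs). Promoters came from a RefSeq table, and near copies were sought with BLAST 2.17.0 in the last 500 bases of each gene, where *INHBE* alone matched another gene (430 bases at 100% identity, the opposite-strand lncRNA).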

Additional observations from a re-analysis of the deposited data

Results flagged for a closer look

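*INHBE* in DMSO replicate 2 was at 53.9 CPM, apart from the other 3 DMSO libraries at 44.3 to 45.3 CPM by Dixon's criterion (95%). It was the 1 such library in 24 sets of 4 looked at, and chance flags about 1 in 20. Without it, the calls of *INHBE* were the same in the 5 comparisons that use DMSO, and ISRIB against DMSO, which was not called, went from −0.05 to 0.02.

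The effect of nelfinavir differed with and without bortezomib by −1.58 for *GDF15*, −2.91 for *INHBE*, −2.74 for *ADM2* and −1.48 for *STC2* on the log2 scale, each past the threshold of the edgeR interaction test. The effect of ISRIB differed likewise by −0.803 for *INHBE* and −0.895 for *STC2*. The share of mitochondrial counts was also higher with bortezomib. Fitted with mitochondrial genes removed, the nelfinavir interaction was called for 4 genes and the ISRIB interaction for 2. Any further part of that share in these differences was not tested.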

How the results depend on the processing

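Of 352 recomputed values for the 4 tested genes, 340 kept their side of the threshold under the other settings, as did 410 of 416 with a library left out. Where called, these values also kept their direction, while a value not called could change sign and still be counted. Library totals alone had the most effect: the number of the 4 genes called fell from 4 to 2 for bortezomib plus nelfinavir against bortezomib and from 4 to 2 against nelfinavir, *STC2* against nelfinavir reversed to −0.11, and *ADM2* in bortezomib against nelfinavir reversed to −0.085. With that scaling, higher genes as a share of those called went from 50.3 to 19.6% for bortezomib plus nelfinavir against nelfinavir, from 53.2 to 19.3% for bortezomib plus ISRIB against ISRIB, from 51.6 to 16.4% for bortezomib against nelfinavir, from 56.3 to 40.5% for bortezomib plus ISRIB against bortezomib and from 60.7 to 49.4% for the ISRIB interaction, and the other way, from 54.0 to 57.9%, for bortezomib plus nelfinavir against bortezomib plus ISRIB. With a library left out, 3 to 4 genes were called for bortezomib plus nelfinavir against bortezomib. ISRIB alone called 0 genes of all tested, against 21 by DESeq2, 39 without the filter and 81 with only the groups compared. Of 60 same-number pairs of libraries from different groups, 10 had a correlation of deviations over 0.1, against 7 of 180 other pairs. Averaged by replicate number over the other groups, the correlation was highest for the library's own number in 14 of 24 libraries. This is a hint from the data and not from the labels. Since not every same-number pair was over 0.1, the numbers were not taken as pairs. With the replicate number as a block, the calls of the 4 genes were equal in number in all 11 comparisons, 4 for bortezomib against DMSO, where 6835 genes were called in place of 6774. Counts under 10 reads limit *FGF21* and *FGF19*.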

Other observations

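Other secreted liver factors moved in both directions. Of 25 tested, bortezomib raised 8 and lowered 14 (median log2 fold change −0.40) and nelfinavir raised 7 and lowered 2. Among all genes, 27.6% were called higher and 25.8% lower with bortezomib, and 10.4% and 8.84% with nelfinavir. *IGFBP1*, an insulin-like growth factor binding protein, rose by 5.06 with bortezomib and by 4.91 with nelfinavir, and by a further 1.70 when nelfinavir was added to bortezomib. *LEAP2*, the ghrelin receptor antagonist of the liver, fell by 3.87 with bortezomib. *KNG1*, kininogen, fell by 2.86 with bortezomib and rose by 1.82 with nelfinavir. With ISRIB added to bortezomib 7 rose, among them *MANF* (1.84), a secreted factor of the endoplasmic reticulum stress response, and 2 fell, where 6.89% of all genes were called higher and 5.34% lower.

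FGF19 restrains bile acid synthesis in the liver, and genes of bile acid synthesis and transport were also read. Of 11 tested, bortezomib raised 2 and lowered 6 and nelfinavir raised 4 and lowered 2, beside 27.6% higher and 25.8% lower among all genes with bortezomib and 10.4% and 8.84% with nelfinavir. *CYP7A1*, the rate-limiting enzyme of bile acid synthesis, fell by 2.57 and 1.11, and *CYP8B1* fell by 2.25 with bortezomib. *NR0B2*, which encodes the repressor SHP, rose by 2.52 and 1.51, while *FGF19* itself held 18 reads in all libraries.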
